A study of Mus musculus with 13 samples.

Results

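Among 5972 genomic sites bound by the nuclear co-repressors NCoR or SMRT in mouse fibroblasts on day 9 of reprogramming, 529 (8.86%) were absent from the co-repressor lists of embryonic stem cells (ESCs) and lay away from active chromatin in both ESCs and fibroblasts. They are the intervals of the merged day 9 NCoR and SMRT lists that overlapped no ESC NCoR or SMRT interval and had no ESC and no fibroblast H3K27ac interval centre within 1 kb of their own centre. They were thus chosen by interval positions in those 6 lists, and neither the absence of ESC co-repressor overlap nor the distance to ESC or fibroblast H3K27ac is a result. Of all day 9 sites, 559 (9.36%) passed the H3K27ac criterion, and 30 of these were left out because they overlapped an ESC interval. No co-repressor list from unreprogrammed fibroblasts was used here, so "day 9-specific" is relative to ESCs only.

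The study measured chromatin immunoprecipitation followed by sequencing (ChIP-seq) in 13 mouse libraries, 1 per group, of which 12 have interval lists. ESCs of strain C57BL/6J (day 0, untreated) gave NCoR, SMRT and H3K27ac lists, and an input library not used here. Untreated mouse embryonic fibroblasts (MEFs) of strain C57BL/6J-OG2 (day 0) gave an H3K27ac list. MEFs of that strain carrying introduced OSKM, the reprogramming factors POU5F1, SOX2, KLF4 and MYC, gave the NCoR and SMRT lists on day 9. OSKM cultures that also received either a FLAG control plasmid or a plasmid for HDAC3-YF, a form of the enzyme HDAC3 that by the design text cannot deacetylate, gave H3K27ac lists on days 5, 9 and 13. These are unsorted cultures, and an interval seen in few cells and one weak in every cell cannot be told apart. With 1 library per group no difference between conditions has a replicate check. All intervals below are 95% and cover counting error only (Wilson for shares, Newcombe for differences between sets of sites), and sites of 1 library are not replicates.

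NCoR and SMRT are large scaffold proteins that transcription factors recruit to DNA, and they bind and activate HDAC3, which removes acetyl groups from histones. Acetylation of lysine 27 on histone H3 (H3K27ac) marks active promoters and enhancers. Reprogramming factors must shut off the fibroblast programme and open that of pluripotent cells, and the labels of the series present the co-repressors together with MYC as a barrier in that process.

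The read depths are unknown, since the files hold intervals and scores without counts. The H3K27ac lists hold 14251 to 26591 intervals. The 6 ESC marker genes (Pou5f1, Nanog, Esrrb, Tfcp2l1, Zfp42 and Dppa5a) held 43 ESC intervals within the gene and 20 kb around it, 7 MEF intervals and 6 to 10 in each OSKM library. Without Pou5f1, itself an introduced factor, the sums were 36, 1 and 1 to 3, with Tfcp2l1 at 0 in all 6 OSKM libraries. The 6 MEF marker genes (Col1a1, Col1a2, Prrx1, Twist2, Thy1 and Fbn1) held 35 intervals in MEFs, 2 in ESCs and 5 to 15 in each OSKM library. Markers of other cell types (40 genes) held 48 intervals in ESCs, 52 in MEFs and 22 to 33 in each OSKM library. Their part in the results below was not tested.

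Every site is a 200 bp interval (mm10). The promoter sequences of 5 genes show what stood under sites at gene starts, which were the exception among the 529. They are the 250 bases before the annotated start, 5′ to 3′ on the gene's strand, from RefSeq (GRCm38.p6). The first 3, Ap2m1, Ect2l and Hopx, are the promoters at the sites that hold the E-box CACGTG, the letters that MYC and its partner MAX bind, in capitals.
Ap2m1: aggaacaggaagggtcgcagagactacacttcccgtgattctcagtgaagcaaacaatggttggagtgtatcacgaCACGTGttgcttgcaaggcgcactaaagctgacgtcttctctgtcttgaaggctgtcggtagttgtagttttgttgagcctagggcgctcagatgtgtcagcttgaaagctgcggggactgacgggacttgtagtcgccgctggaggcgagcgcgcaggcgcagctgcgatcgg
Ect2l: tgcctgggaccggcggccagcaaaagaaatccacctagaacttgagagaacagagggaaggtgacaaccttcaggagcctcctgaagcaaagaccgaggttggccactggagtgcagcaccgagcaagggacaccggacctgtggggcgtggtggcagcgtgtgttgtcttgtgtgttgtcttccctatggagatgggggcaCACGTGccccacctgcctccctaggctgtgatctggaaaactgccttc
Hopx: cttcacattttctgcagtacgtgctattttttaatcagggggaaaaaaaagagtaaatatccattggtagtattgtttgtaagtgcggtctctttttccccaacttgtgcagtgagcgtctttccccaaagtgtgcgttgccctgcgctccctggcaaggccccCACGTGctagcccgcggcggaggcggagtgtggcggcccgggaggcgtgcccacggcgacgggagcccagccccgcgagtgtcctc
The Ap2m1 stretch is chr16:20535230-20535479 (plus strand), and the NCoR-only site covered bases 202 to 3 before the start, with the E-box, which begins 174 bases before it. The Ect2l stretch is chr10:18210828-18211077 (minus strand), and the SMRT-only site covered bases 166 to 1 before the start, with the E-box at base 48. The Hopx stretch is chr5:77095268-77095517 (minus strand), with the E-box at base 86. There the site, in both lists, lay wholly downstream of the start, so the E-box was outside it. A further pair was chosen after the values were seen, Tpbg for its site at the start with H3K27ac in all 6 OSKM libraries and Trib2 for the lowest score of the 529.
Tpbg: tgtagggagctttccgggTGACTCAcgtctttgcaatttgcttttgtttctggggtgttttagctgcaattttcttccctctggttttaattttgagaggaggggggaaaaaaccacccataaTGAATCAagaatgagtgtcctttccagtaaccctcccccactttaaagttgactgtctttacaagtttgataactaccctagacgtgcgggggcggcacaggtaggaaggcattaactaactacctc
Trib2: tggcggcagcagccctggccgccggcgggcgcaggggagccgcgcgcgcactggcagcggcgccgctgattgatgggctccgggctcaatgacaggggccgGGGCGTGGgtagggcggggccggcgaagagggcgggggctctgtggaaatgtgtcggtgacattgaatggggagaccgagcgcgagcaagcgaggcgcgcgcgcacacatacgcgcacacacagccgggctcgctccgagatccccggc
In Tpbg (chr9:85842130-85842379, plus strand) the capitals mark TGANTCA, the letters bound by AP-1 factors such as JUNB, at bases 232 and 127 before the start. Both fell outside the site, which reached from base 102 across the start. In Trib2 (chr12:15816786-15817035, minus strand) the capitals mark GGGNGTGG, letters of the kind bound by KLF factors, at base 149, inside the stretch of bases 250 to 56 covered by the site.

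The sites differed from the other day 9 sites in which co-repressor list held them. Here and below a site carries a co-repressor if the list of that co-repressor holds it. SMRT alone was listed at 252 (47.6%, 43.4% to 51.9%), both co-repressors at 159 (30.1%, 26.3% to 34.1%) and NCoR alone at 118 (22.3%, 19% to 26%). Across all 5972 day 9 sites these shares were 13.3%, 68.1% and 18.6%. Against the 5443 other day 9 sites, SMRT alone was more frequent by 37.7 percentage points (33.4 to 42) and both together less frequent (difference -41.7 points, -45.7 to -37.5). NCoR alone differed by 4.04 points (0.543 to 7.92). The 4258 day 9-specific sites that had ESC or MEF H3K27ac carried SMRT alone at 10.6%, so the SMRT-only share was also 37 points (32.7 to 41.3) higher than at acetylated sites with the same absence from ESCs.

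The corresponding set in ESCs had a like composition. Among 1486 ESC sites that overlapped no day 9 interval and had no ESC or MEF H3K27ac within 1 kb, 48.9% carried SMRT alone, a difference of -1.22 points (-6.15 to 3.74) from the 529 sites. Both co-repressors together were 7.45 points (3.1 to 12) more frequent at the day 9 sites, and NCoR alone was less frequent there (difference -6.23 points, -10.3 to -1.87). A large SMRT-only share of the listed sites was thus found away from ESC and MEF H3K27ac in both the day 9 and the ESC set. Their libraries were made with the same NCoR and SMRT antibodies.

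**Figure D1:**
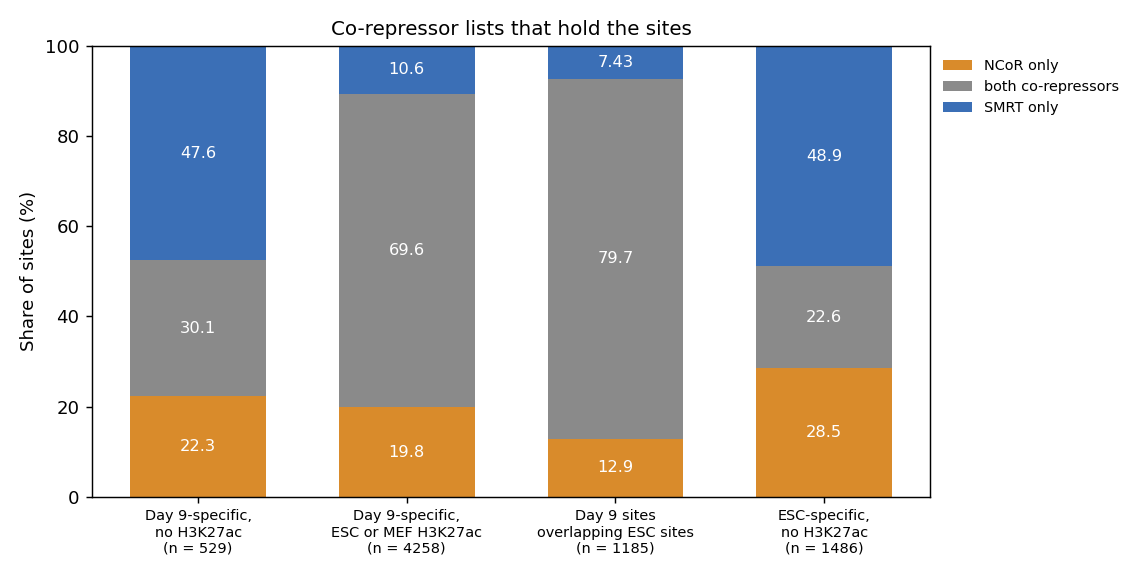
Share of sites (%) in the NCoR list only, the SMRT list only or both, for 4 sets of co-repressor sites (n under each bar). SMRT alone makes up 47.6% of the day 9-specific sites without H3K27ac and 48.9% of the ESC-specific ones, against 10.6% and 7.43% of the remaining day 9 sets.

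The authors' score for these lists is signed and shared between them: each of the 159 sites in both lists had 1 score. All 118 NCoR-only sites scored at least 1, all 252 SMRT-only sites at most -1, and all 159 sites in both lay between. List membership and score therefore carry the same division among these sites, and the score was not read as the height of a peak. A SMRT-only or NCoR-only listing is thus not a measurement that the other co-repressor was absent. Its scale is not stated in the sources used here. Scores of the 529 ranged from -2.75 to 2.82 with a median of -0.80, and 337 (63.7%) were below 0. The other day 9 sites had a median of 0.23, with 39.9% below 0, and the ESC set a median of -0.93. The SMRT-only sites had a median of -1.59, the NCoR-only sites 1.49 and the sites with both -0.12.

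**Figure D2:**
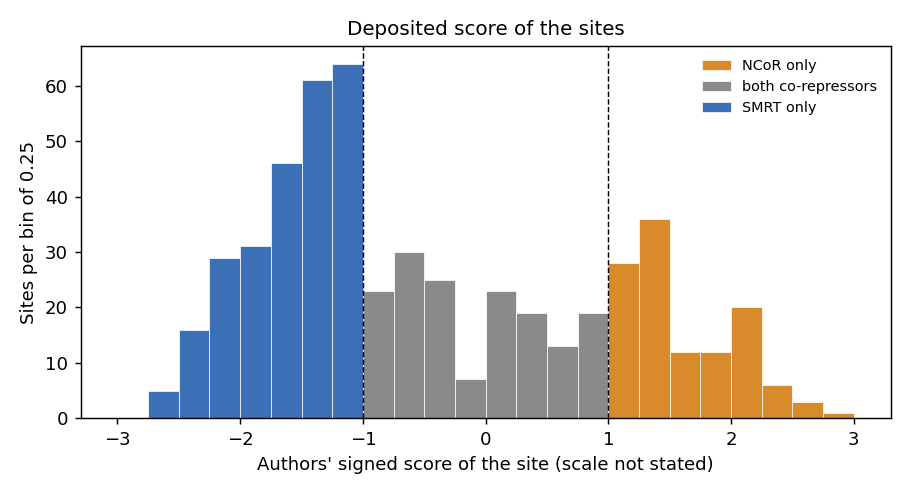
Number of the 529 sites per bin of 0.25 of the authors' signed score, coloured by list, with dashed lines at -1 and 1. The colours meet at the lines, and more sites lie on the SMRT side (337 below 0) than on the NCoR side.

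The 5 sites with the highest scores all carried NCoR alone and had no H3K27ac within 1 kb in any OSKM library. They lay in Zfp568, a zinc finger gene (score 2.82), 317 bp from an end of Tnni1, a troponin gene of slow skeletal muscle (2.61), in a gene-poor region 524205 bp from Fancl (2.61), in the spermine oxidase gene Smox (2.61) and in Cdk12, a kinase gene of transcription elongation (2.49). At the other end, Trib2, the gene of a pseudokinase, had its site (chr12:15816841-15817040) 22 bp from the gene's end, at its start, with a score of -2.75. It was the one of these 10 with OSKM H3K27ac, listed in 3 libraries (day 9 FLAG score 11.8, day 13 FLAG 9.44, day 13 HDAC3-YF 9.1). The next lowest were 26980 bp from Akap6 (-2.65), in Slc12a8 (-2.65), 512 bp from Dlx6 (-2.55) and 35541 bp from Lrrc1 (-2.55), all without H3K27ac in the 6 libraries.

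The sites were mostly away from gene ends. Within 1 kb of either end of a protein-coding gene lay 75 of the 529 (14.2%, 11.5% to 17.4%), against 74.5% of all day 9 sites and 80.4% of the others (difference -66.2 points, -69.1 to -62.8). A further 246 (46.5%) were inside a gene and over 1 kb from an end, against 14.8% of the other day 9 sites. Outside genes and over 1 kb from an end lay 208 (39.3%), against 4.87%. More than 50 kb from any protein-coding gene lay 53 (10%), against 1.01%. The median distance to a gene end was 11395 bp, against 265 bp for the other day 9 sites. The rule had left out sites near ESC or MEF H3K27ac, a mark of active promoters. Contrasts in position with the other day 9 sites, also those to starts below, are therefore not independent of the rule. The ESC set, chosen with the same H3K27ac criterion, was near to the 529, with 10.6% at gene ends (3.55 points lower than the 529, 0.358 to 7.09). Exons and introns were not separated, since the gene table holds gene bounds only.

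**Figure D3:**
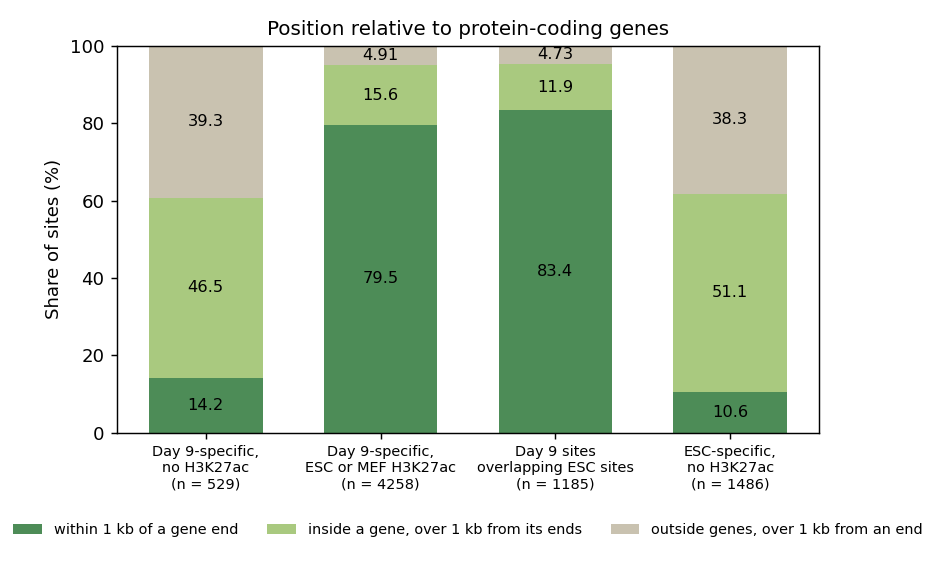
Share of sites (%) within 1 kb of a protein-coding gene end, inside a gene but farther from its ends, and outside genes, for the same 4 sets (n under each bar). Only 14.2% of the day 9-specific sites without H3K27ac are at gene ends, against 79.5% and 83.4% of the day 9 sets beside them. The rule left out sites near ESC or MEF H3K27ac, so this contrast is not independent of it.

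Distance to annotated starts gave the same picture. Of the 505 sites on chromosomes with start positions in the table (24 on chromosome 18 were left out), 60 (11.9%) lay within 1 kb of a start, 28 upstream and 32 downstream of it. Of the other day 9 sites, 78.8% lay within 1 kb, 1083 upstream and 3091 downstream. The sites nearest to a start were at Specc1 (2 bp), at the divergent pair Gm5432 and Trib2 (3 bp), at Tpbg (3 bp), Scin (4 bp), Maml3 (10 bp), the pair Gm16675 and Irf2 (13 bp), Marchf4 (16 bp), Serpinb5 (17 bp), Abca14 (20 bp) and Pde2a (24 bp). Scin encodes an actin-severing protein, Maml3 a Notch co-activator and Serpinb5 the serpin maspin. Of these 10 sites, 6 were far from ESC and MEF acetylation, from 26488 bp at Specc1 to 88627 bp at Scin for the nearer cell type, and the remaining 4 (Tpbg, Trib2, Maml3 and Gm16675) had it within 1039 to 2283 bp.

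Position went with the co-repressor listed. Sites with both were at gene ends in 23.3% (37 of 159), NCoR-only sites in 12.7% (15 of 118) and SMRT-only sites in 9.13% (23 of 252). The difference of both over SMRT only was 14.1 points (6.91 to 21.9), and that of both over NCoR only 10.6 points (1.25 to 19.2). NCoR-only and SMRT-only sites differed by 3.58 points, with an interval from -2.83 to 11.4. Their median distances to a gene end were 4265 bp, 11151 bp and 20717 bp in the same order. The same held at lncRNA gene ends, which took 11.3% of the sites with both, 3.39% of the NCoR-only and 3.17% of the SMRT-only sites.

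The sites were scattered. Another day 9 site lay within 10 kb of 46 (8.7%), against 23.5% of the other day 9 sites, and another of the 529 lay within 10 kb of 6. In all, 6 genes had 2 each inside the gene or within 1 kb of its ends: Ccdc57, Erp27, Myc, Parp4, Specc1 and Zbtb7c. Both sites in Ccdc57 and both in Parp4 were SMRT only, with no OSKM H3K27ac. The pair at Zbtb7c, a zinc finger gene of the POK family, had H3K27ac in 3 libraries each. By chromosome, the share of day 9 sites that belonged to the set ran from 4.17% on chromosome 16 (9 sites) to 14% on chromosome 18 (24 sites) among autosomes. The sites farthest from a gene were 1133140 bp from Lingo2, 755218 bp from Cntn5, 595347 bp from Galr1, 586155 bp from Plxna2 and 557603 bp from Gsdmc. Of these 5, 4 were SMRT only and the Galr1 site NCoR only, and none had H3K27ac in an OSKM library. One site, in both lists, lay 786 bp from the microRNA hairpin Mir7b and had none either. A microRNA gene end lay within 1 kb of 2 of the 529 (0.378%), against 0.971% of all day 9 sites.

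The label "without H3K27ac" was then set against the OSKM libraries, whose lists the rule did not use. In none of the 6 was an interval centre within 1 kb at 431 sites (81.5%), and 98 sites (18.5%, 15.4% to 22.1%) had one in at least 1 library. Of all day 9 sites 90.9% had one, and of the others 97.9% (difference -79.4 points, -82.5 to -75.9). The OSKM cultures were MEFs with introduced factors, and the rule had left out sites with MEF H3K27ac within 1 kb. Of the other day 9 sites, 96.4% had MEF H3K27ac within 1 kb. Contrasts in OSKM H3K27ac with all or the other day 9 sites, here and below, are therefore not independent of the rule. The share of 18.5% was 8.7 points (5.22 to 12.5) higher than in the ESC set (9.83%), chosen with the same H3K27ac criterion. Of the 98, 47 had an interval in 1 library, 16 in 2, 12 in 3, 8 in 4, 7 in 5 and 8 in all 6. The 8 in all 6 are 1.51%, against 76.9% of all day 9 sites. The label thus held for most sites in the reprogramming cultures and not for these 98.

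By library, an interval centre lay within 1 kb of 33 sites (6.24%) on day 5 with FLAG and 34 (6.43%) with HDAC3-YF. On day 9 it was 39 (7.37%) and 37 (6.99%), and on day 13 it was 44 (8.32%) and 43 (8.13%). Over all day 9 sites the shares were 85.1%, 83.5%, 85.9%, 84.5%, 84.5% and 84.9% in the same order. The intervals at the 529 sites also scored lower than elsewhere. Their median scores in that order were 20.8, 20.5, 17.3, 11.6, 11.6 and 9.62, against 110, 97.2, 103, 101, 38.8 and 43 at the other day 9 sites, on a scale that ends at 200. Direct overlap of intervals, in place of a centre within 1 kb, was found at 7 to 19 sites per library, 9.45% of sites over all 6. The share by direct overlap over all day 9 sites is not given here.

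Acetylation in the OSKM cultures also went with the co-repressor listed. It was present in at least 1 library at 32.7% of sites with both (25.9% to 40.3%), 14.4% of NCoR-only sites (9.19% to 21.9%) and 11.5% of SMRT-only sites (8.13% to 16%). Both exceeded SMRT only by 21.2 points (13 to 29.5) and NCoR only by 18.3 points (8.2 to 27.5). NCoR only against SMRT only gave 2.9 points (-4.01 to 11.1). In single libraries both exceeded SMRT only by 7.91 to 13.6 points, with each of the 6 intervals above 0. Against NCoR only the interval lay above 0 in the day 13 libraries alone (13.2 and 13.4 points). NCoR-only sites exceeded SMRT-only sites on day 5 (4.85 points, 0.291 to 11.2, with FLAG and 5.25 points, 0.767 to 11.6, with HDAC3-YF), and the intervals for days 9 and 13 included 0.

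**Figure D4:**
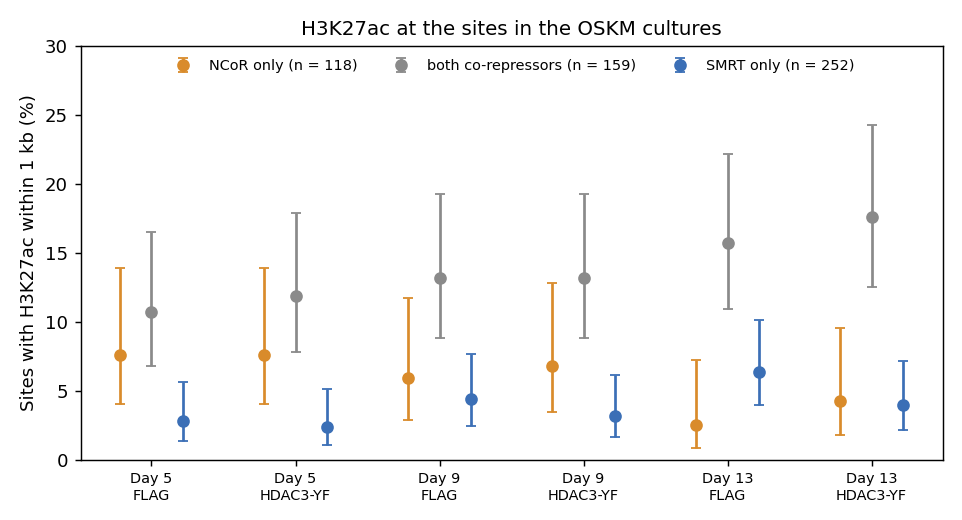
Share (%) of the NCoR-only, both and SMRT-only sites with an H3K27ac interval centre within 1 kb in each of the 6 OSKM libraries, with 95% Wilson intervals (counting error only). Sites with both lie at 10.7% to 17.6%, above the SMRT-only sites (2.38% to 6.35%) in each library.

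Sites just past the 1 kb limit of the rule had OSKM H3K27ac more often than the rest. The nearest ESC or MEF interval was a median of 13786 bp away (quartiles 5460 and 39240 bp). For 55 sites (10.4%) it was between 1 and 2 kb away, and 41.8% of these (29.7% to 55%) had OSKM H3K27ac. Beyond, the share was 15% at 2 to 5 kb (60 sites), 16.7% at 5 to 10 kb (102), 15.9% at 10 to 50 kb (208) and 15.4% beyond 50 kb (104). Sites at 1 to 2 kb carried both co-repressors in 56.4% and SMRT alone in 29.1%, whereas SMRT alone made up 47.6% to 53.8% of the farther groups. Just inside the limit were the sites nearest to Junb (1004 bp), Tsc22d2 (1015 bp) and Derl3 (1017 bp), and just outside those nearest to Xpo1 (993 bp), Cracd (990 bp) and Jph4 (988 bp). With a limit of 2 kb in the rule, 474 sites remained and SMRT alone made up 49.8%, whereas a limit of 0.5 kb admitted 811 with 37.4%.

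The few sites with H3K27ac throughout included genes of the introduced factors. Of the 8 sites with it in all 6 libraries, 4 lay in or within 5 kb of Pou5f1, Klf4 or Myc. The Klf4 site (chr4:55530564-55530763), inside the gene and 2038 bp from MEF and 2094 bp from ESC acetylation, scored 200 in each of the 6. Fewer intervals reached 200 in the day 13 lists as a whole, 1.67% with FLAG and 2.11% with HDAC3-YF. On days 5 and 9 it was 9.06% to 11.9%, so a lower score on day 13 is not particular to these sites. The first Myc site (chr15:61988087-61988286), inside the gene, scored 200 in both day 5 and both day 9 libraries, then 123 with FLAG and 179 with HDAC3-YF on day 13. The second (chr15:61989489-61989688), also inside, scored 107 and 140 on day 5, 18 and 77.3 on day 9 and 32.8 and 70.3 on day 13 (FLAG first). Nearest ESC acetylation to them was 91484 and 90082 bp away, and nearest MEF acetylation 1731 and 3133 bp.

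The Pou5f1 site (chr17:35504171-35504370) lay outside the gene, 1762 bp upstream of its start. It scored 24.3 and 57.1 on day 5, 61.7 and 67 on day 9 and 83.2 and 78.7 on day 13 (FLAG first), so the lowest value was that of day 5 with FLAG and both day 13 values were the highest. ESC acetylation was nearest at 1122 bp and MEF acetylation at 1600 bp. All 4 of these sites carried both co-repressors. Sox2 had 2 day 9 sites, which the rule left out, with MEF acetylation 13 and 414 bp away and ESC acetylation 532 and 959 bp away. It also left out 2 further sites downstream of Pou5f1, with MEF acetylation 301 and 450 bp away, which scored 200 in all 6 OSKM libraries, as both Sox2 sites did. At sites inside Klf4 and Myc, signal from the cells' own gene and from introduced copies cannot be told apart. Without the 4 sites, 17.9% of the set had OSKM H3K27ac, against 18.5% with them.

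The remaining 4 sites with all 6 libraries differed in how far they stood from ESC and MEF acetylation. The site in Shisa3 (chr5:67608111-67608310), a gene of an antagonist of Wnt and FGF signalling, was SMRT only, 327 bp from the start and 180576 bp from the nearest ESC or MEF interval. Its scores were 52.9 and 18 on day 5, 36.2 and 16.4 on day 9 and 13.6 and 32.1 on day 13 (FLAG first), so FLAG was higher on days 5 and 9 and HDAC3-YF on day 13. The site at the start of Tpbg, a membrane glycoprotein gene, had MEF acetylation at 1044 bp and scored 188, 131, 84, 73.3, 71.3 and 66 in the same order. The site in Nr3c1, the gene of the glucocorticoid receptor, was SMRT only and had MEF acetylation at 1064 bp. Its scores ran from 18.7 to 52.7. The site in Sfi1, a centrosome gene, was in both lists, had ESC acetylation at 1643 bp and scored 7.32 to 77.6.

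With 5 libraries, the site in the ubiquitin ligase gene Hecw1 (NCoR only) stood 90348 bp from the nearest ESC or MEF acetylation. It scored 20.8 and 25.4 on day 5, 13 and 19.4 on day 9, and had no interval on day 13 with FLAG and 14 with HDAC3-YF. The site in Mknk2, the gene of a kinase of the translation factor eIF4E, had MEF acetylation at 1069 bp and lacked an interval only on day 5 with HDAC3-YF. The Ap2m1 promoter site, at the gene of a clathrin adaptor subunit, lacked one only on day 13 with FLAG and scored 7.13 to 46.8 elsewhere. In all, 23 sites had H3K27ac in 4 or more libraries, and 12 of these were among the 55 within 2 kb of ESC or MEF acetylation.

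**Figure D5:**
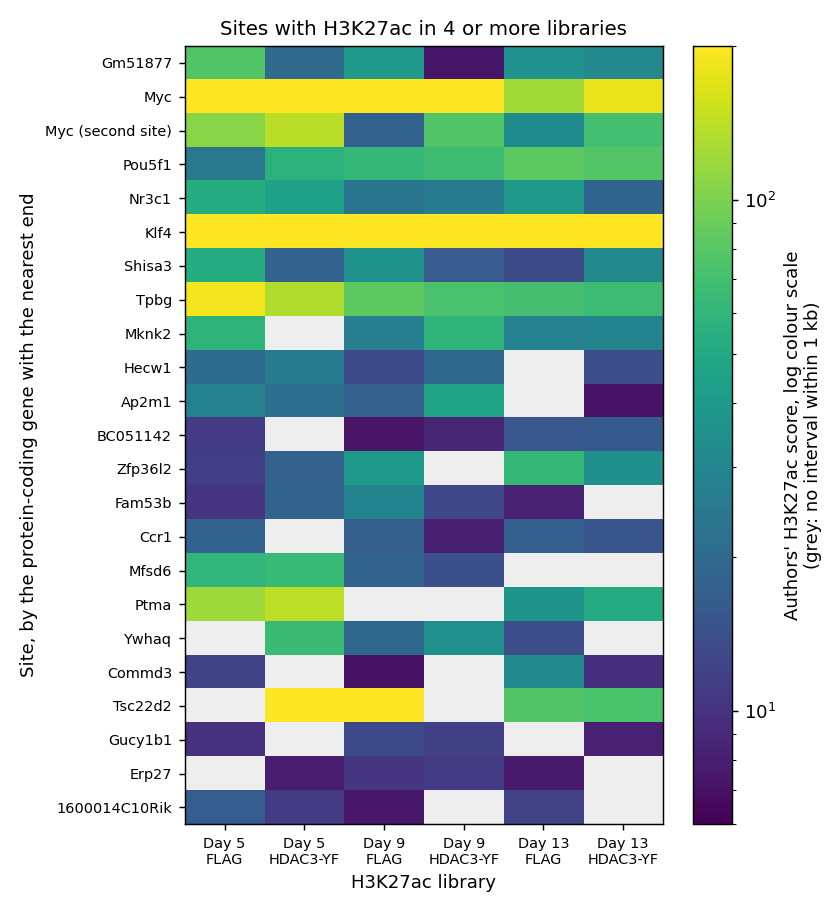
Authors' H3K27ac score (colour, log scale, up to 200) of the highest interval within 1 kb at the 23 sites with H3K27ac in 4 or more OSKM libraries, one row per site, named by the protein-coding gene with the nearest end (the Gm51877 row is the site in Sfi1), and one column per library. Klf4 is at 200 throughout and the first Myc site at 123 to 200, whereas Shisa3 and Hecw1 lie between 13 and 52.9 where listed.

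The HDAC3-YF and FLAG cultures had nearly equal shares of acetylated sites. The difference, HDAC3-YF minus FLAG, was 0.189 percentage points on day 5 (-1.59 to 1.97), with 12 sites in HDAC3-YF only and 11 in FLAG only. It was -0.378 points on day 9 (-2.47 to 1.72), from 15 and 17 sites, and -0.189 points on day 13 (-2.78 to 2.4), from 24 and 25 sites. The shares of all day 9 sites found in HDAC3-YF only and in FLAG only were 1.32% and 2.98% on day 5, 1.74% and 3.10% on day 9 and 3.58% and 3.20% on day 13. These intervals describe the sites of single libraries and set no bound on a difference between the cultures. With the arms paired by day, the difference was -0.126 ± 0.289 points (SD, n = 3 days), with a p of 0.75 in a two-sided exact sign-flip permutation test, where 0.25 is the smallest that 3 pairs allow. The days are successive stages and not replicates, so neither the SD nor the p measures the spread between cultures. No conclusion is drawn from that test. On day 9 the direction depended on the measure: direct overlap with an interval was found at 16 sites with HDAC3-YF and 7 with FLAG, a difference of 1.7 points (0.274 to 3.13), the one interval of 24 alternatives over the 3 days that did not include 0.

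At the other day 9 sites HDAC3-YF was lower on day 5 (-1.84 points, -2.39 to -1.29) and day 9 (-1.45, -2.03 to -0.875). The difference between the 529 and these was 2.03 points on day 5 (0.167 to 3.89), 1.07 on day 9 (-1.1 to 3.25) and -0.63 on day 13 (-3.31 to 2.05). In the ESC set HDAC3-YF was higher on day 13 by 2.22 points (0.996 to 3.45), and the difference of the 529 from it was -2.41 points, with an interval from -5.28 to 0.458.

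Although the totals were alike, the single lists of the 2 arms held different sites to a large extent. Of the 45 sites acetylated in either arm on day 5, 22 (48.9%, 35% to 63%) were acetylated in both. On day 9 it was 22 of 54 (40.7%, 28.7% to 54%) and on day 13 19 of 68 (27.9%, 18.7% to 39.6%). At the other day 9 sites 93.1% to 95.4% were shared, and in the ESC set 21.6% to 32.6%. Interval scores were lower at the 529, with library medians of 9.62 to 20.8 against 38.8 to 110 at the other day 9 sites. The part of low scores in the lower sharing was not tested. The arm without an interval had one just past the limit, between 1 and 2 kb away, at 7 of 23 sites on day 5, 6 of 32 on day 9 and 7 of 49 on day 13. Over all days, 45 of the 98 sites were acetylated in both arms, 29 in HDAC3-YF only and 24 in FLAG only, and none had all 3 days of 1 arm and no day of the other. Day 13 alone accounted for 32 of the 98, day 9 alone for 12 and day 5 alone for 8. The same counts over all day 9 sites are not given here, so these are not read as particular to the 529.

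There were 5 sites that had H3K27ac with HDAC3-YF but not FLAG on 2 of the 3 days and on no day the other way round. In Arid3a, a gene of an ARID-family DNA-binding factor, an interval lay 18 bp away on day 5 and 85 bp away on day 9 with HDAC3-YF (scores 11.6 and 6.81), against 9885 and 9897 bp with FLAG. In Pde9a, a cyclic GMP phosphodiesterase gene, it lay 222 bp away on day 9 and 253 bp on day 13 (7.37 and 8.39), against 48784 and 37923 bp. In Borcs5, a gene of lysosome positioning, it lay 350 and 79 bp away on days 5 and 9 (11 and 11.3), against 13306 and 13280 bp. In Smarca2, which encodes the chromatin-remodelling ATPase BRM, it lay 787 and 732 bp away on days 5 and 9 (23 and 12.4), against 44162 and 11202 bp. These scores are near the bottom of a scale whose lowest value was 6.69 to 6.72 in those lists.

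The fifth of these sites, in Nr1d1, which encodes the heme receptor REV-ERBα that recruits NCoR and HDAC3, differed. Its day 9 HDAC3-YF interval scored 109 at 915 bp, and that of FLAG lay at 1244 bp, so both arms had an interval nearby. On day 13 the HDAC3-YF interval lay at 157 bp (score 6.85) and that of FLAG at 1052 bp.

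Another 5 sites had it with FLAG but not HDAC3-YF on 2 days, and Hmga1 and Junb among them had the reverse on the third day. In Lama3, a laminin gene, an interval lay 210 bp away on day 9 and 86 bp on day 13 with FLAG (scores 13 and 12.5), against 97599 and 28349 bp with HDAC3-YF. At the site 62981 bp from Commd3 it lay 138 and 541 bp away on days 5 and 9 (12.3 and 7.01), against 63169 and 63200 bp, and both arms had one on day 13. At 1600014C10Rik both arms had one on day 5, and on days 9 and 13 it lay 253 and 240 bp away with FLAG (7.49 and 12), against 9425 and 9493 bp. At Hmga1, a chromatin architecture gene, and Junb, a gene of the AP-1 family, all 6 libraries had an interval within 782 to 1100 bp, on either side of the limit, and scores where counted reached 200 and 164. With no interval within 1 kb in the opposite arm on any day, 5 sites had 2 days of HDAC3-YF and 1, that in Lama3, had 2 days of FLAG. The 5 include Nr1d1, where FLAG intervals lay 1052 to 1244 bp away, just past the limit. Counted within each day, both directions had 5 sites with 2 days. For these counts too, none over all day 9 sites is given here.

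Few genes of the lists examined had one of the 529 sites. Of 21900 protein-coding genes, 0.361% had one within 1 kb of an end and 3.00% within the gene or 20 kb around it. Any day 9 site was found at 21.5% and 37.1%. The window grows with gene length, which was not adjusted for. Among 178 developmental transcription factor genes 8 (4.49%) had a site in the wider window, from 6 sites. They included Dlx5 and Dlx6 (forebrain and skeletal patterning), which shared a site, Foxc2 and Foxf1 (mesoderm), which shared another, Pax5 (B cells), Gata6 (endoderm) and Neurod2 (neurons). The shared site of Foxc2 and Foxf1 lay inside another gene, Mthfsd, 11924 and 16093 bp from their ends. That of Neurod2 lay outside the gene, 13081 bp from its end. The Dlx6 site (chr6:6862723-6862922) was the single one at a gene end, SMRT only and without OSKM H3K27ac. The Pax5 site, inside the gene, had H3K27ac in 3 libraries (7.65 and 12.2 on day 5 and 13.2 on day 9 with FLAG).

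Of 40 neuronal genes, 4 (10%) had a site in the wider window: Chga, which encodes chromogranin A, Celsr3, a cadherin gene of axon guidance, Rbfox3, which encodes the neuronal marker NeuN, and Slc17a7, a vesicular glutamate transporter gene. All 4 sites were without H3K27ac in the 6 libraries, and that of Celsr3 lay 985 bp from a gene end. The Chga site lay inside another gene, Itpk1, and 14239 bp from an end of Chga. Of 40 germline genes 1 had a site, Spo11, the nuclease gene of meiotic double-strand breaks (chr2:172977956-172978155, inside the gene, NCoR only, score 2.02, no OSKM H3K27ac). Of 28 matched fibroblast genes, 3 (10.7%) had one, inside the collagen gene Col5a1, the growth factor receptor gene Pdgfra and the thrombospondin gene Thbs1. Only the Pdgfra site had H3K27ac, on day 13 with HDAC3-YF (score 7.92).

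No gene had a site in either window among 29 pluripotency genes other than those of the introduced factors, 30 MYC target genes of ribosome production and growth, 40 markers of other cell types or 6 genes of the NCoR/SMRT-HDAC3 complex. The share over all protein-coding genes was 3.00% in the wider window, so lists of these sizes could hold none without differing from it. No result is read from these absences. Day 9 sites that the rule left out did lie at the MYC targets. Of the 30, 16 had some day 9 site at an end and 23 (76.7%) in the wider window, against 21.5% and 37.1% of all genes. Of the pluripotency genes 7 (24.1%) had some day 9 site in the wider window.

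At the promoters that the sites did overlap, 31 sites met 37 windows of 34 genes, a window being the 250 bases before to 50 after a start. Their CpG count had a median of 16, against 7 over all 32851 windows and 27 over the 2810 windows at other day 9 sites. The E-box CACGTG, searched on both strands as were all motifs, was in 3 of the 37 (8.11%, 2.8% to 21.3%), against 7.15% of all windows and 11.2% of those at other day 9 sites, a difference this number of windows cannot resolve. The looser E-box CANNTG, which includes CACGTG, was in 59.5%, against 72.3% and 54.2%. TGANTCA was in 5 windows (13.5%, 5.91% to 28%), against 7.81% and 3.81%, but 3 of the 5 were windows of a shared site at 4930556N13Rik and Akap1, with Serpinb5 and Tpbg the others. GGGNGTGG was in 27% (15.4% to 43%), against 17.6% and 23%. Its windows at Gm5432 and Trib2 shared a site, as did those at Gm16675 and Irf2. The SOX-like ACAATG was in 16.2% (12.6% and 5.87%), the POU-like ATGCAAAT in 2.7% (1.74% and 0.996%) and the nuclear receptor half-site AGGTCA in 5.41% (16.3% and 9.22%). For ACAATG the interval was 7.65% to 31.1%, and both windows of Pde2a, at a shared site, were counted. Motif matches are descriptions of letters in a window, and sequence was not read at the sites away from promoters.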

How the data were processed

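Interval lists of 12 of 13 ChIP-seq libraries were used, each in the authors' deposited score with its coordinates. Bowtie2 2.2.0, MACS 1.4 and mm10 are named in the submitters' processing notes; settings and the score's scale are not given in the sources used here. NCoR and SMRT day 9 intervals overlapping by at least 1 bp were merged and members found by the rule. H3K27ac was counted where an interval centre lay within 1 kb of the site centre. Gene bounds, promoter windows and sequences came from RefSeq (GRCm38.p6). Shares carry 95% Wilson intervals, differences between sets Newcombe intervals, and HDAC3-YF minus FLAG differences intervals over discordant sites. Each group has 1 library, so the one p-value pairs the arms by day (exact sign-flip permutation). Member finding was tested on simulated sites. Sites were named by fixed rules: most OSKM libraries, arm differences, extreme scores, several sites per gene, nearest to the limit, to starts and farthest from genes, listed genes at ends, and promoters with CACGTG. Other sites from the same tables were named after their values were seen. The members, rules and gene lists were chosen with earlier results of these data known. Python 3.11.15 and matplotlib 3.10.9 were used. A listed gene is not reported here.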

Additional observations from a re-analysis of the deposited data

How the results depend on the processing

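Of 55 alternative values 40 stayed within the limits set for the main one, 13 moved and 2, both of the mean over the 3 days, were classed as reversed. The single-day HDAC3-YF minus FLAG differences also changed sign under some alternatives without being classed so. On day 5 the main 0.189 points became -0.863 with the 0.5 kb limit. On day 9 -0.378 became 0.422 with the 2 kb limit, and on day 13 -0.189 became 1.51 with equal numbers of intervals per list. The limits set were wide for the number of sites. It counted among the 40 although it rose from 529 to 772 with the top 50% of the ESC and MEF H3K27ac lists in the rule. A limit of 0.5 kb to ESC and MEF H3K27ac gave 811 sites, 32.2% of them at gene ends and 44.1% with OSKM H3K27ac in any library. Sites with both co-repressors alone numbered 159, with 23.3% and 32.7%. The share at gene ends was 24.6% with a 2.5 kb window and 19.7% with ends of all annotated genes. The share with OSKM H3K27ac was 9.45% by direct overlap and 5.1% with the top 50% of each OSKM list. The share of promoters with an E-box was 59.5% for CANNTG. The HDAC3-YF minus FLAG difference on day 9 was 1.7 points by direct overlap, against -0.378. Its mean over the 3 days, -0.126 points, was 0.567 by direct overlap and 0.189 with equal numbers of intervals per list. The SMRT-only share was 37.4% with the 0.5 kb limit and stayed within its interval under the 3 further alternatives, which, like the values without the 4 sites at introduced genes and the pairing by day, were chosen after seeing the data.

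With 1 library per group, no replicate was left out, and differences between days or arms rest on single libraries. Pairing by replicate number was not available, since the groups share fewer than 2 numbers, and the arms were paired by day instead. Read depth is unknown, so an interval missing from a list cannot be told apart from one too weak to be called, and the intervals at these sites score low.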
